A study of Homo sapiens with 2 samples.

Results

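The 10 genes described here regulate, or are regulated by, the transcription factors ATF4 and CHOP: ATF4, ATF5, DDIT3 (which encodes CHOP), CEBPB, CEBPG, TRIB3, SESN2, DDIT4, STC2 and VLDLR. They were chosen by symbol, with earlier results of these data known. All were found among the 60619 genes of the deposited tables. All 10 were also among the 13304 genes kept by a filter on low counts (10 or more counts in 1 library, with a mean CPM, counts scaled to library size, of 1 or more). RNA was sequenced from HBEC-3KT, an immortalized line of human bronchial epithelial cells, in 2 libraries. For one library the cells had been transduced with pLenti6 virus carrying human CBS, the transsulfuration enzyme cystathionine beta-synthase, and for the other with pLenti6 virus without it. Per the labels' protocols, virus was left on both cultures for 4 to 8 hours, blasticidin (10 µg/mL) removed untransduced cells, and plates were coated with gelatin for a culture of 4 to 5 days. The design asked how CBS bears on the Polycomb complex PRC2, and the stress regulators below are a readout beside that question.

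ATF4 is a basic leucine zipper (bZIP) factor at the end of the integrated stress response. Kinases that sense amino acid shortage, unfolded protein in the endoplasmic reticulum, viral RNA or heme shortage phosphorylate the initiation factor eIF2alpha, which lowers general protein synthesis while ATF4 mRNA is translated more. ATF4 then induces amino acid transporters, aminoacyl-tRNA synthetases, biosynthetic enzymes and CHOP, and much of its activity is thus set by translation, which RNA sequencing does not measure. In epithelial cells the same response follows loss of cysteine, serine or other amino acids.

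With 1 library per group (20785957 estimated counts for CBS, 20433062 for the empty vector), the differences below lack a replicate check and the conditions could not be tested against each other. Folds compare the 2 libraries after TMM scaling, log2 folds carry a prior count of 5, and the intervals are exact 95% Clopper-Pearson intervals of the ratio of counts, which cover counting error only. CBS itself went from 280 counts in empty-vector cells to 3669 in CBS cells, at a log2 fold of 3.59 (3.44 to 3.79), in the direction of the labels, although reads are shared with its near-identical copy CBSL. All 7 airway basal markers passed the filter, with a summed level of 7070 TPM (a level scaled for transcript length and depth) in empty-vector cells and 4441 in CBS cells. Of the 7, 3 reached a 2-fold lower level with CBS, while ITGA6 was at a log2 fold of -0.10 and TP63 at -0.04 (-0.10 to 0.01). The 5 general epithelial markers summed to 5562 TPM in empty-vector cells and 6501 in CBS cells. Intervals lay above a ratio of 1 for 3 of them (KRT18, EPCAM and KRT8) and below it for 2 (KRT19 and CDH1). Of the secretory markers none passed the filter, and SCGB3A1 was at 0 in both libraries. Among markers of other cells, the leukocyte gene PTPRC and the fibroblast genes DCN and LUM were at 0 in both libraries. CD68, of macrophages and other cells, had 2259 counts from empty-vector cells and 619 from CBS cells. CD14, also on the leukocyte list, had 203 counts from empty-vector cells and 225 from CBS cells, at a log2 fold of 0.05 (-0.23 to 0.33). COL1A1, the single fibroblast marker of 6 above the filter, went from 270 counts to 132 with CBS, at a log2 fold of -1.10. Of 4 endothelial markers CDH5 alone passed, going from 7 counts to 87 with CBS at a log2 fold of 2.86, while KDR was at 0 in both libraries, VWF had at most 1 count and PECAM1 had 8 counts and then 1. The part of these marker differences in the results was not tested, and in RNA from a whole culture fewer cells of a state and less RNA per cell cannot be told apart.

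Of the 10 regulators, 9 were lower in the CBS library, their intervals lying wholly below a ratio of 1, and ATF5 alone had an interval above it (below, lower and higher without a fold mean an interval on that side of 1). Over all genes kept, an interval below 1 was seen in 31.1% and an interval above 1 in 31.6%. At least 2-fold lower were 5 of the 10 (DDIT3, SESN2, STC2, VLDLR and TRIB3), against 5.28% of all genes kept, and none was at least 2-fold higher, against 1.41%. In TPM the same count was 5 of 10 lower, against 2.83% of all genes kept, and 0 higher, against 1.19%. The median log2 fold of the 10 genes was -1.04, beside 0.00 over all genes kept. In TPM the median was -0.90, beside 0.09 over all genes kept. Since the 10 genes were chosen with earlier results of these data known, these contrasts with all genes describe the set and test nothing. The summed level of the 10 genes was 2446 TPM with the empty vector and 1724 TPM with CBS.

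**Figure D1:**
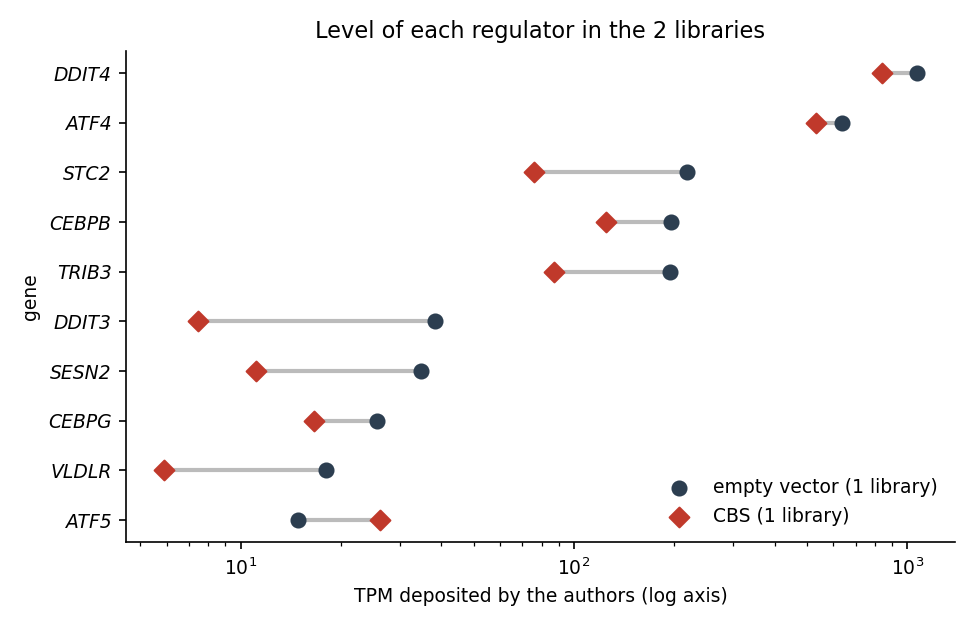
Level of each of the 10 genes in the empty-vector library (circles) and the CBS library (diamonds), in TPM on a log axis, 1 library per point and no error bars because there are no replicates. The CBS point lies to the left of the empty-vector point for 9 genes and to the right for ATF5, and the gap is widest for DDIT3 (7.45 against 38.2 TPM).

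In both libraries the most abundant of these transcripts, compared per length, was DDIT4, with 1069 TPM for the empty vector and 839 TPM for CBS. ATF4 came next, with 638 and 531 TPM. DDIT4 made up 43.7% of the summed TPM of the 10 genes with the empty vector and 48.7% with CBS, and ATF4 26.1% and 30.8%. DDIT3, the gene of CHOP, was sixth in the empty-vector library and ninth in the CBS library. The lowest of the 10 was ATF5 in the empty-vector library, at 14.9 TPM, and VLDLR in the CBS library, at 5.89 TPM.

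Stretches just before a transcription start of 4 of the genes are shown with motifs found in their promoter windows (250 bases before to 50 after each RefSeq start, GRCh38.p14, 300 bases in all). The CEBPG stretch precedes the second of its starts and lies within the span of the gene. The other stretches lie upstream of their genes. The 4 stretches were picked because DDIT3, SESN2 and DDIT4 were lower together and their windows hold the same CCAAT letters, and because CEBPG has the single match to the element that ATF4 and C/EBP factors bind as a pair. STC2, CEBPB and CEBPG also hold CCAAT and were lower, while ATF4, TRIB3 and VLDLR were lower without it. A link between these letters and the folds was not tested. Capitals mark CCAAT or its reverse complement ATTGG, the hypoxia response core ACGTG in DDIT4, and the composite element TGATGNAA in CEBPG. Sequences run 5′ to 3′ on the strand of the gene.
DDIT3, chr12:57520565-57520624, minus strand: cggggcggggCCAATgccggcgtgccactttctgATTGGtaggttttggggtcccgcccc
SESN2, chr1:28259358-28259442, plus strand: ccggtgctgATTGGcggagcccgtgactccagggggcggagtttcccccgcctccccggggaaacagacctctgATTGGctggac
DDIT4, chr10:72273789-72273863, plus strand: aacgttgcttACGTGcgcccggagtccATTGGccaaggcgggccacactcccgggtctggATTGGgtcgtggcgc
CEBPG, chr19:33374053-33374102, plus strand: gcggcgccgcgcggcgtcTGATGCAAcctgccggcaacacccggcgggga

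Promoter windows were matched for all 10 genes by symbol, and motifs were searched on both strands. The letters CCAAT, which the factor NF-Y recognises, occurred in a window of 6 of the 10 genes (DDIT3, CEBPB, CEBPG, SESN2, DDIT4 and STC2), against 39.7% of the 27305 genes with a window. In DDIT3 their first bases lay at -100 and -76 from the start shown, in SESN2 at -151 and -86, and in DDIT4 at -108 and -75. The composite element TGATGNAA was found in CEBPG, at -42 from the second of its starts, and in 4.46% of all genes. ACGTG occurred in ATF4 and DDIT4, and in 24.9% of all genes. These 3 motifs do not overlap each other in the stretches shown. None of the 3 was found in the windows of ATF5, TRIB3 or VLDLR. For any of the 10 genes, a motif not found means only that its letters are not in the windows searched. These reach 250 bases before a start.

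ATF4 (ENSG00000128272, GRCh38 chromosome 22, 39519695 to 39522685), the factor that carries the response, had 12978 counts from empty-vector cells and 10629 from CBS cells. Its log2 fold was -0.39 (-0.42 to -0.35), 1.31-fold lower with CBS. That was the smallest difference of the 10 genes, and 20.9% of all genes kept had a lower log2 fold.

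DDIT3 (ENSG00000175197, chromosome 12, 57516588 to 57520517) encodes CHOP, a bZIP factor of the C/EBP family that ATF4 induces and that drives death and recovery genes under lasting stress. It had 500 counts from empty-vector cells and 99 from CBS cells. The log2 fold of -2.38 (-2.76 to -2.12), or 5.41-fold lower, was the lowest of the 10 and the 56th lowest of the 13304 genes kept. Its interval is also the widest of the 10, since 99 counts were the fewest. DDIT3 shares 982 bases with MARS1, a methionyl-tRNA synthetase on the opposite strand, whose log2 fold was 0.23 (0.17 to 0.29). Strandedness is not given in the sources used here, so reads from the shared bases cannot be told apart.

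ATF5 (ENSG00000169136, chromosome 19, 49928702 to 49933935), a close relative of ATF4 known for mitochondrial stress responses, was the exception. It had 422 counts from empty-vector cells and 712 from CBS cells. The log2 fold was 0.65 (0.48 to 0.83), 1.58-fold higher with CBS, and 94.5% of genes kept had a lower one. ATF5 overlaps NUP62, a nuclear pore gene on the opposite strand, over 1062 bases. NUP62 went in the same direction, from 1919 counts to 2852 with CBS, at a log2 fold of 0.47 (0.39 to 0.56), and its part in the ATF5 value was not tested.

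CEBPB and CEBPG encode C/EBP factors that pair with ATF4 on composite elements, CEBPG lacking an activation domain of its own. CEBPB (ENSG00000172216, chromosome 20, 50190734 to 50192689) had 5499 counts from empty-vector cells and 3456 from CBS cells, and its log2 fold was -0.77 (-0.83 to -0.71). CEBPG (ENSG00000153879, chromosome 19, 33373330 to 33382686) had 1483 counts from empty-vector cells and 951 from CBS cells, and its log2 fold was -0.74 (-0.86 to -0.62). The intervals of both genes overlapped, and both lay between those of ATF4 and TRIB3. CEBPB-AS1, an antisense gene over CEBPB, had 9 and 11 counts.

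**Figure D2:**
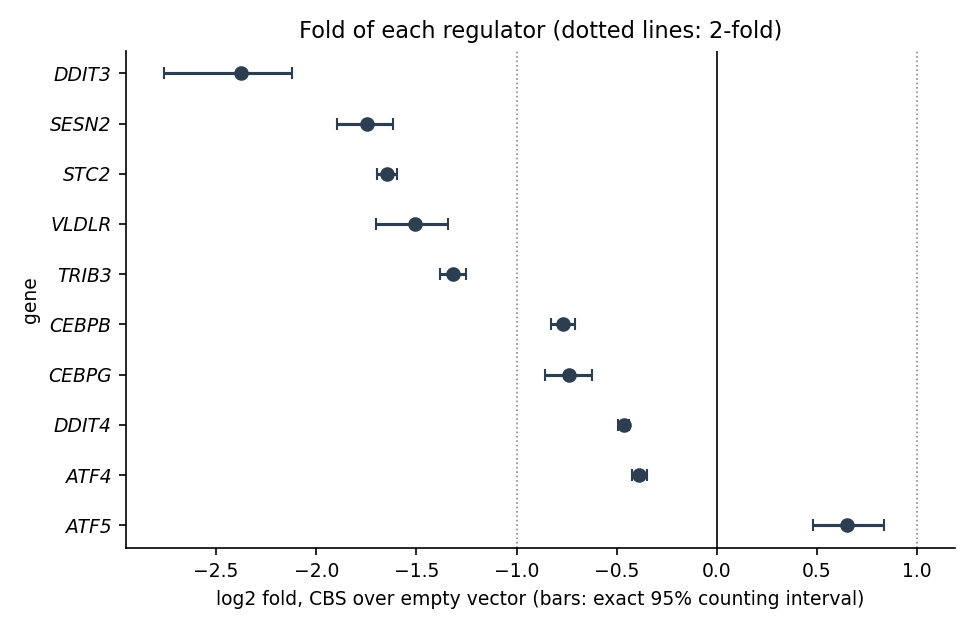
Log2 fold of each of the 10 genes, CBS library over empty-vector library, with exact 95% intervals that cover counting error only. DDIT3, SESN2, STC2, VLDLR and TRIB3 lie below the dotted line of a 2-fold difference, CEBPB, CEBPG, DDIT4 and ATF4 lie between it and 0, and ATF5 at 0.65 is the single gene above 0.

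TRIB3, SESN2 and DDIT4 encode inhibitors induced by the response. TRIB3 (ENSG00000101255, chromosome 20, 362835 to 397559), a pseudokinase that binds ATF4 and CHOP and dampens them, had 6794 counts from empty-vector cells and 2918 from CBS cells. It was 2.49-fold lower, at a log2 fold of -1.32 (-1.38 to -1.25). SESN2 (ENSG00000130766, chromosome 1, 28259527 to 28282491), the leucine-sensing sestrin that holds back the growth kinase mTORC1, had 1742 counts from empty-vector cells and 552 from CBS cells. At a log2 fold of -1.75 (-1.90 to -1.62) it was 3.38-fold lower, the next lowest after DDIT3. DDIT4 (ENSG00000168209, chromosome 10, 72273920 to 72276036), also called REDD1, inhibits mTORC1 through the TSC complex. It had 25199 counts from empty-vector cells and 19530 from CBS cells, and its log2 fold was -0.47 (-0.49 to -0.44). The intervals of these 3 inhibitors did not overlap one another.

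STC2 and VLDLR encode proteins outside the nucleus that the response also induces. STC2 (ENSG00000113739, chromosome 5, 173314713 to 173329503), a secreted stanniocalcin, had 12663 counts from empty-vector cells and 4323 from CBS cells. It was 3.14-fold lower, at a log2 fold of -1.65 (-1.70 to -1.60). VLDLR (ENSG00000147852, chromosome 9, 2621834 to 2660053), a lipoprotein receptor of the cell surface, had 927 counts from empty-vector cells and 346 from CBS cells, and its log2 fold was -1.51 (-1.70 to -1.34). The interval of SESN2 overlapped those of STC2 and VLDLR, so their order is within counting error. The antisense gene VLDLR-AS1 had 10 counts from empty-vector cells and 0 from CBS cells.

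**Figure D3:**
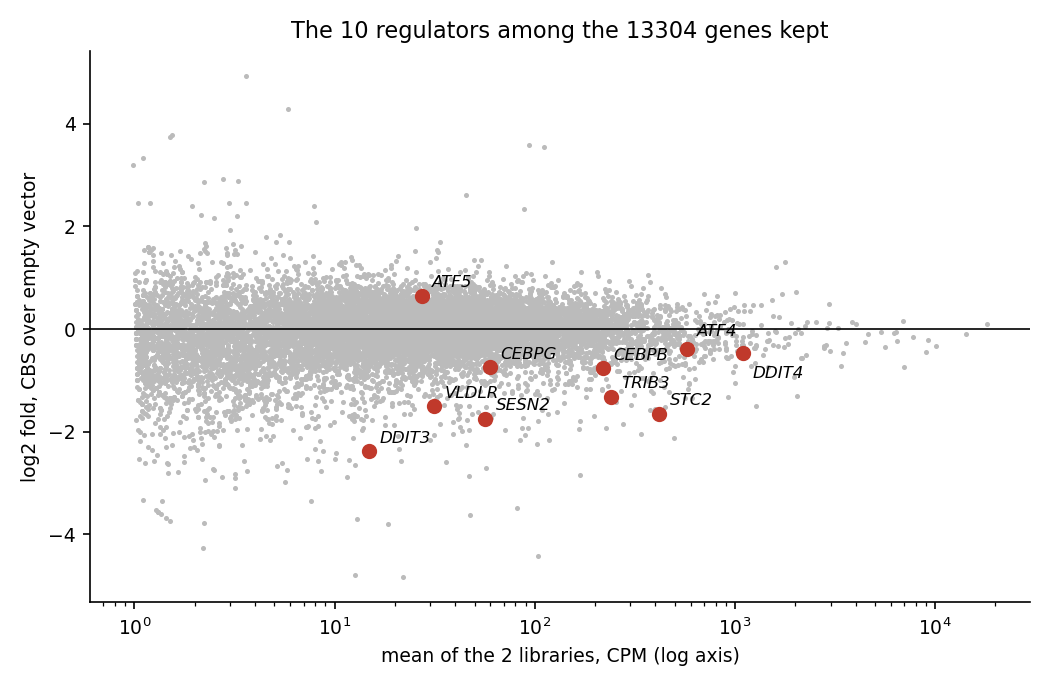
Log2 fold against the mean CPM of the 2 libraries (log axis) for the 13304 genes kept (grey), with the 10 genes in red. DDIT3 at -2.38 is the lowest of the 10, while ATF4 and DDIT4, the most abundant, lie nearer to 0 and ATF5 lies above it.

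Close relatives of the 10 genes gave a mixed picture, with 4 of 9 kept genes lower, 2 higher and 3 with an interval that held a ratio of 1. Their median log2 fold was -0.20, or -0.07 in TPM and -0.11 with a correction for the GC content and length of transcripts. STC1, the other stanniocalcin, had 2924 counts from empty-vector cells and 818 from CBS cells, and its log2 fold was -1.93 (-2.05 to -1.82). The sestrins SESN1 at -0.10 (-0.35 to 0.15) and SESN3 at -0.16 (-0.34 to 0.01) had intervals that held no difference and that did not overlap the interval of SESN2. Of the tribbles genes, TRIB1 was at -0.66 (-0.82 to -0.51) and TRIB2 at 0.20 (0.02 to 0.39). Among C/EBP genes CEBPD was at -0.44 (-0.53 to -0.34) and CEBPA at -0.38 (-0.90 to 0.09), or -0.06 and -0.08 with the GC and length correction. LRP8, a lipoprotein receptor, was at 0.41 (0.27 to 0.56). DDIT4L and CEBPE did not pass the filter.

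Genes that act above ATF4 were mostly higher in the CBS library. Of 10 eIF2alpha kinases and their regulators, 8 had an interval above a ratio of 1 and 2 below, and none reached 2-fold. Their median log2 fold was 0.28. EIF2AK4, which encodes the amino acid sensor GCN2, was at 0.57 (0.48 to 0.66), with 2548 counts for CBS and 1604 for the empty vector. IMPACT, an inhibitor of GCN2, was at 0.48 (0.30 to 0.67) and GCN1, its activator, at 0.16 (0.09 to 0.22), or -0.10 in TPM. DNAJC3 at 0.41, the viral RNA sensor EIF2AK2 at 0.37, the substrate EIF2S1 at 0.35, the constitutive phosphatase subunit PPP1R15B at 0.22 and the heme sensor EIF2AK1 at 0.19 were the others above 1. The pair below 1 was EIF2AK3, which encodes the endoplasmic reticulum sensor PERK, at -0.36 (-0.58 to -0.14), and PPP1R15A, the inducible phosphatase subunit GADD34, at -0.69 (-0.80 to -0.60).

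Partners that share bZIP dimers with ATF4 or CHOP were lower in 8 of 10 kept genes, with 2 intervals holding a ratio of 1 and a median of -0.57. FOS was at -2.70 (-2.90 to -2.55), JDP2 at -1.74 (-2.20 to -1.43), ATF3, a stress-induced repressor, at -1.07 (-1.43 to -0.77), or -0.67 in TPM, and NFIL3 at -1.01 (-1.20 to -0.84). Targets of CHOP in cell death and recovery were lower in 7 of 8 genes, with a median of -0.45 (-0.28 in TPM). CHAC1, which degrades glutathione, had 1637 counts from empty-vector cells and 238 from CBS cells, and its log2 fold of -2.85 (-3.08 to -2.68) had an interval that overlapped that of DDIT3. The proapoptotic gene BBC3 was at -1.05 (-1.48 to -0.72), or -0.70 in TPM and -0.68 with the GC and length correction, and GADD45A at -0.47 (-0.61 to -0.34), or -0.26 in TPM. Other stress genes responsive to ATF4 were lower in 7 of 9, with 4 at least 2-fold lower and a median of -0.99. The count of 4 was 3 in TPM, with plain library totals and with a prior count of 20. Among the genes of this list were the growth factor VEGFA at -1.21 (-1.26 to -1.16), the cytokine GDF15 at -1.06 (-1.15 to -0.98) and HERPUD1, of protein degradation in the endoplasmic reticulum, at -0.99 (-1.15 to -0.84). GDF15 was at -0.96 in TPM and -0.83 with the GC and length correction. Gene lists here overlap and are not independent. This list also holds CHAC1, shares CEBPD with the relatives, VEGFA with the hypoxia targets and GDF15 with the p53 targets. The CHOP targets share PPP1R15A with the eIF2alpha list and BBC3 with the p53 targets.

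Among metabolic targets of ATF4, in 3 lists, no kept gene reached 2-fold in either direction. Amino acid transporters had 6 of 8 intervals below a ratio of 1 and 1 above, with a median of -0.13 that became 0.02 in TPM. Over all genes kept the median in TPM was 0.09. Of those 6, SLC1A5 and SLC3A2, named after their values were seen, were at 0.07 and 0.13 in TPM. Only SLC3A2 was thus above the TPM median of all genes kept. With the GC and length correction SLC1A5 and SLC3A2 were at 0.10 and 0.05, beside a median of 0.00 over all genes kept. SLC1A4 was at -0.79 (-1.06 to -0.55), the glycine transporter SLC6A9 at -0.52 (-0.72 to -0.34), the cationic transporter SLC7A1 at -0.29 (-0.35 to -0.23) and SLC38A2 at -0.16 (-0.20 to -0.12). In TPM these 4 were at -0.39, -0.29, -0.17 and -0.04. Aminoacyl-tRNA synthetases had 7 of 12 intervals above 1 and 3 below, with a median of 0.16. YARS1 at 0.50 (0.43 to 0.56), IARS1 at 0.49 (0.43 to 0.55), LARS1 at 0.44 (0.36 to 0.52) and NARS1 at 0.28 (0.22 to 0.34) were the furthest from 0. Enzymes of amino acid and one-carbon synthesis had 4 of 10 intervals below and 4 above, with a median of 0.08 (0.13 in TPM). GPT2, an alanine transaminase, was at -0.77 (-0.89 to -0.67), the asparagine synthetase ASNS at -0.43 (-0.52 to -0.34), MTHFD2 at -0.33 (-0.41 to -0.25), or -0.17 in TPM, and the proline synthesis enzyme PYCR1 at 0.27 (0.14 to 0.41), or 0.48 with the GC and length correction.

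**Figure D4:**
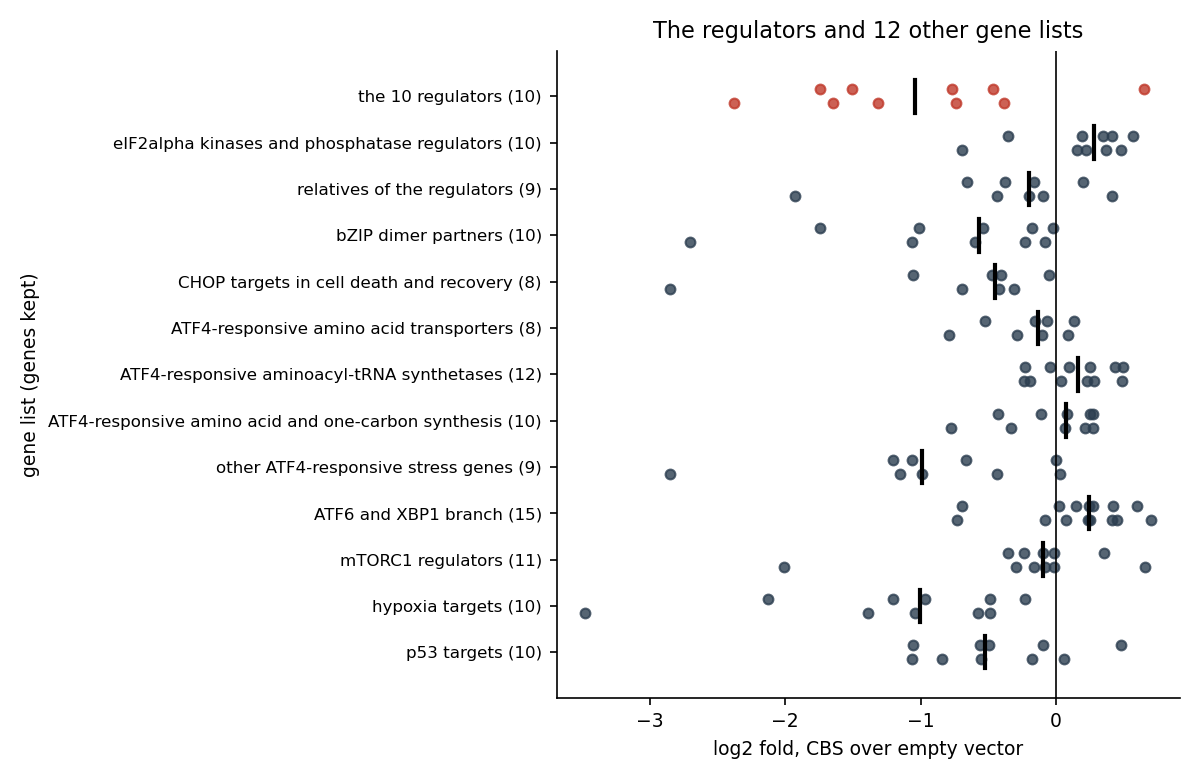
Log2 folds, CBS over empty vector, of the 10 genes (red) and of the kept genes of 12 other lists (dark points), with the number of genes in brackets and a black bar at each median. Some genes are in several lists, so the medians are not independent. The 10 regulators (median -1.04), the other ATF4-responsive stress genes (-0.99) and the hypoxia targets (-1.0) lie furthest to the left, while the synthetases (0.16), the eIF2alpha kinases (0.28) and the ATF6 and XBP1 branch (0.24) lie to the right of 0.

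In the other branches of the unfolded protein response, the listed genes did not share a direction. Among the 15 genes listed for ATF6 and XBP1, intervals lay above a ratio of 1 for 10, below it for 2 and held it for 3, with a median of 0.24 (0.17 with the GC and length correction) and none at 2-fold. The chaperone HSP90B1 had 15064 counts from empty-vector cells and 26294 from CBS cells, and its log2 fold was 0.71 (0.68 to 0.73), and CRELD2 was at 0.60 (0.41 to 0.81). Those below were ERN1, which encodes the sensor IRE1, at -0.73 (-0.98 to -0.51), and XBP1, its substrate, at -0.69 (-0.78 to -0.62). ATF6 itself, which lies outside the naming rule and was named after its value was seen, was at 0.02 (-0.10 to 0.15).

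Several of the 10 genes also answer to low oxygen or to p53, DDIT4, STC2 and VLDLR among the first and SESN2 and DDIT4 among the second. All 10 listed hypoxia targets were lower with CBS, 5 of them by 2-fold or more, and their median was -1.0. They included CA9 at -3.48 (-3.69 to -3.33), NDRG1 at -2.13 (-2.18 to -2.08) and EGLN3 at -1.39 (-1.58 to -1.23), beside VEGFA. Targets of p53 were lower in 6 of 10 genes and higher in 1, with a median of -0.53 (-0.34 in TPM and -0.40 with the GC and length correction). CDKN1A was at -0.84 (-0.89 to -0.79) and TP53I3 at -0.56 (-0.75 to -0.38). The higher gene was MDM2, which lies outside the naming rule, at 0.48 (0.45 to 0.51). The part of either response in the values of the 10 genes was not tested.

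**Figure D5:**
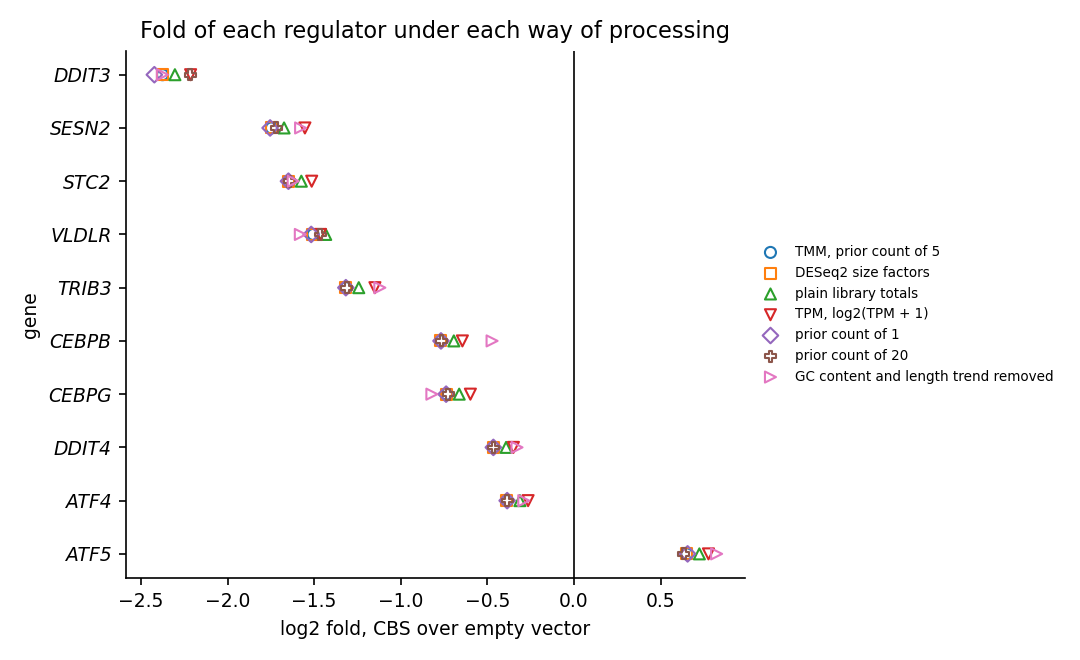
Log2 fold of each of the 10 genes as reported and under the other scalings, prior counts, TPM and a correction for GC content and length. The points of each gene keep their side of 0, and the widest shift is that of CEBPB, from -0.77 to -0.47 with that correction.

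Every one of the 10 genes kept its direction under the 8 alternatives that gave a fold. Those that changed only the filter could not move a fold and are left out of the plot of folds by processing. DDIT3 ranged from -2.42 to -2.21, SESN2 from -1.75 to -1.55, STC2 from -1.65 to -1.51, VLDLR from -1.58 to -1.43 and TRIB3 from -1.32 to -1.12. ATF5 ranged from 0.63 to 0.82 and ATF4 from -0.39 to -0.27. Expected counts that were not whole, which arise where reads fit more than 1 place, occurred in 4 of the 10 genes (ATF4, ATF5, DDIT3 and CEBPB).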

How the data were processed

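Transcripts of 2 HBEC-3KT libraries were analysed, grouped by the genotype in the labels. The submitters' processing notes list Trimmomatic 0.39, STAR 2.6.1d, RSEM 1.3.2 and GRCh38 but not what each did, and strandedness and annotation release are not given in the sources used here. One table deposited by the authors holds expected counts, of which 15.5% (CBS) and 15.7% (empty vector) were not whole. They were rounded before use. The authors also deposited TPM, which sum to 1000000 and 999999, used to compare levels between genes and, as log2(TPM + 1), as an alternative.

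Genes with at least 10 counts in 1 library and a mean of 1 CPM were kept. TMM factors (edgeR 4.0.16, R 4.3.3, no model fitted) were 1.03 for CBS and 0.975 for the empty vector. A gene was called at a fold of 2 with a 95% interval that excluded a ratio of 1. Intervals cover counting error only, since 1 library per group gives no spread between cultures or libraries. They also take reads as independent, which PCR copies are not. Genes outside the 10 were named by rule: all eIF2alpha genes and relatives that were kept, and up to 4 genes per other list whose absolute log2 fold was largest among those with 100 or more counts in 1 library. A gene that the rule takes is not reported here. The 10 members and the 12 gene lists were chosen with earlier results of these data known. Symbols of list genes were matched by gene ID to current names. On simulated Poisson counts for CBS over empty vector (13304 genes, 50 per changed fold), intervals held the true value for 95.5% of unchanged genes, and genes with a true log2 fold of -2 were called in 100% and of -1 in 50% of cases. A lowess trend (statsmodels 0.14.6, span 0.3) on the GC content and length of the longest GENCODE 29 transcript, known for 99.4% of kept genes, was subtracted as an alternative. Other alternatives were DESeq2 1.42.0 size factors, library totals, prior counts of 1 and 20, other filters and fold thresholds of 1.5 and 4. Promoter windows are from RefSeq.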

Additional observations from a re-analysis of the deposited data

How the results depend on the processing

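The count of at least 2-fold lower regulators was 5 under the other scalings, TPM, prior counts, filters and the GC and length correction. It was 1 (DDIT3) at a fold threshold of 4, while at 1.5 it was 7, and 1 regulator, ATF5, was then higher. Their median log2 fold was -0.97 with plain library totals, -0.90 in TPM and -0.97 with the GC and length trend removed. Of 80 folds of single regulators under alternatives, 63 stayed within the counting interval, 17 moved outside it and 0 changed sign. The other filters cannot change the fold of a regulator. Their values are therefore among the 63 by construction, and the count of 5 was fixed under them. Over all genes, 188 were at least 2-fold higher and 703 lower, or 158 and 377 in TPM, where genes were called on the fold alone. Without a filter on low counts 431 were higher and 1281 lower, and with at least 100 counts in 1 library 115 and 438. At a threshold of 1.5 the counts were 934 higher and 1712 lower, at 4 they were 23 and 105, and a prior count of 20 left 121 higher and 510 lower. With plain library totals 245 were higher and 602 lower. Fewer or more genes pass by construction with the filters, the thresholds and the larger prior count, which draws folds toward 0. Plain library totals moved the median log2 fold over all genes kept up to 0.07. More genes then pass as higher and fewer as lower by construction. For TPM the cause was not tested. No paired analysis was possible because each group held 1 library. For the same reason no library could be left out. Depth limits DDIT3 most, at 99 counts in the CBS library.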

Other observations

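SESN2 and DDIT4 act on mTORC1, and 11 genes of a list of its other regulators and subunits were kept. Of these, 2 had an interval above a ratio of 1, 3 below and 6 held it, with a median log2 fold of -0.10 (-0.04 in TPM). MTOR, the kinase, went from 1157 counts in empty-vector cells to 1959 in CBS cells, at a log2 fold of 0.66 (0.56 to 0.77), and its partner RPTOR was at 0.35 (0.24 to 0.47), or 0.55 with the GC and length correction. FLCN at -0.36 (-0.61 to -0.11) and RRAGC at -0.29 (-0.48 to -0.11; -0.17 in TPM), which act in lysosomal amino acid signalling, were lower. RRAGD, with 56 counts in empty-vector cells and 11 in CBS cells, lies outside the naming rule and was chosen after its values were seen.

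The ratio of expected counts to TPM follows the effective length that was assigned to a gene in each library, and so the mix of its transcripts. Relative to the median gene, the log2 of this ratio differed between CBS and empty vector by 0.21 for VLDLR, which has the largest value of the 10 regulators. Of 12411 genes with at least 1 TPM in both libraries, 7.66% had a difference as high or higher. It was -0.04 for ATF5, -0.04 for TRIB3 and 0.04 for DDIT3, beside a median absolute difference of 0.05 over those genes. VLDLR was 5.89 TPM with CBS and 18.0 TPM with the empty vector.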
